A study of Mus musculus with 32 samples.

Results

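The transcripts described here encode the nuclear subunits of the mitochondrial respiratory chain and of ATP synthase in mouse bone marrow cells. Members were the probe sets with a single platform gene symbol that starts with Nduf, Sdha to Sdhd, Uqcr, Cox4 to Cox8 or Atp5, leaving out Cox6a2 and the assembly factors. A probe set is a group of short probes on the array meant to read the transcript of 1 gene, though some sets can read several transcripts. This gave 81 genes with 167 probe sets, of 18193 genes with 34945 such probe sets on both chip types. Each gene was represented by its brightest probe set, and the others are given where they bear on a result. Complex I had 34 genes, complex II 4, complex III 8, complex IV 18 and complex V 17, where Ndufa4 and Ndufa4l2 were counted with complex IV. Of these, 78 genes passed the filter on low signals and were tested. The other 3, Cox7a1, Cox7b2 and Cox8b, were too dim and are described below. The subunits encoded in mitochondrial DNA are outside this set.

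Complexes I and II take electrons from NADH and succinate, complex III passes them on through cytochrome c, and complex IV hands them to oxygen. Complexes I, III and IV pump protons as they do so, and complex V, the ATP synthase, lets the protons back through a ring of c subunits that turns to make ATP. In marrow, hematopoietic stem cells are known for leaning on glycolysis and keeping respiration low, and committed progenitors are known for higher mitochondrial activity.

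The study set marrow populations side by side to find genes that go up or down as stem cells differentiate. Stem-enriched cells (lineage-negative, Sca-1-positive, cKit-positive), cKit-positive cells (lineage-negative, Sca-1-negative, cKit-positive) and cKit-negative cells (lineage-negative, Sca-1-negative, cKit-negative) were sorted by flow cytometry to an estimated purity above 90%, with 3 samples each. Sca-1-positive cKit-negative cells gave a single sample, at an estimated purity of 98%. Lineage-depleted marrow and total marrow, unsorted, had 3 samples each. The cells had been given no treatment that the labels name, and neither genotype, strain nor age is given in the sources used here. The labels take cKit-positive cells for progenitors further along than the stem-enriched ones, and cKit-negative cells for progenitors leaning to lymphoid fates. The 16 RNA samples were each read on 1 array of chip type A and 1 of type B. Whether the 3 samples of 1 population are from separate mice is not stated in the labels, so the p-values measure only the spread between these samples, which may be technical.

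Several facts about the arrays touch the results that follow. Kit, the gene of the sorted receptor, had a mean log2 signal of 12.24 ± 0.09 in stem-enriched, 12.19 ± 0.13 in cKit-positive and 9.79 ± 0.46 in cKit-negative cells (SD, n = 3 each). Late granulocyte markers, however, were high in cKit-negative cells, with a summed signal of 435686 to 751473 over 12 genes, against 251643 to 532981 in lineage-depleted and 707601 to 822742 in total marrow. T and NK markers were high there too, with 35607 to 62567 over 10 genes, against 15038 to 18648 in total marrow, and 5 of the 10 were called higher. B lineage markers lay below total marrow, with 9928 to 16698 over 9 genes, against 26382 to 36779.6. One library, cKit-positive replicate 2, was unlike the rest. Over all probe sets of both chip types, tested or not, it correlated with the other samples at 0.723 to 0.785 (all remaining pairs of samples gave 0.844 to 0.956). Its log2 ratio of 3 prime to 5 prime Gapdh control signal on chip type A was 0.38 against 2.68 to 4.17 elsewhere. A low ratio means that labelling ran further towards the 5 prime end. Stem-enriched cells had the highest mean, 3.99 ± 0.17, while cKit-negative cells had 3.09 ± 0.22 and total marrow 3.12 ± 0.33. Most differences with cKit-positive cells are therefore also given without replicate 2. Fits with the Gapdh ratio as a covariate lean on that replicate, and the ratio also differs between the populations.

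Population means of the subunit transcripts lay closer together than those of the typical gene. The gap between the highest and the lowest of the 5 population means had a median of 0.62 log2 units over the 78 members, against 0.95 over all 13459 genes tested, and it stayed under 1 log2 unit for 66 members (84.6%, against 53.8% of all genes). Samples of 1 population were closer together as well, with a median SD of 0.18 over the members against 0.32 over all genes in stem-enriched cells, 0.43 against 0.57 in cKit-positive cells, 0.18 against 0.31 in cKit-negative cells, 0.18 against 0.28 in lineage-depleted marrow and 0.26 against 0.26 in total marrow. The difference in gap was not tested. Neither gap nor SD was set against genes of like signal, although the fit lets the spread depend on signal. Whether the narrow span belongs to the subunits or to their signal level cannot be told from these values. Ndufb6, an accessory subunit of complex I, was the flattest, with a gap of 0.12, and Atp5g1, a gene of the c ring of ATP synthase, the widest at 2.45. Signals were on the log2 scale, where 1 unit is a 2-fold change. In bulk samples of this kind fewer cells of a type and less RNA per cell cannot be told apart.

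Within this narrow span the members leaned one way. The highest of the 5 means lay in cKit-positive cells for 39 of the 78 members, against 29.0% of all genes, and in cKit-negative cells for 3 (3.85%, against 13.4%). The lowest mean lay in cKit-negative cells for 30 members (38.5%, against 19.1%) and in lineage-depleted marrow for 2 (2.56%, against 11.7%). Stem-enriched cells were highest for 12 members (15.4%, against 23.6% of all genes) and lowest for 18 (23.1%, against 18.0%). With cKit-positive replicate 2 left out, the first count was 41 members (52.6%, against 26.3% of all genes), and cKit-negative cells were lowest for 31 (39.7%, against 19.9%). These counts are descriptions of the populations and carry no test.

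**Figure D1:**
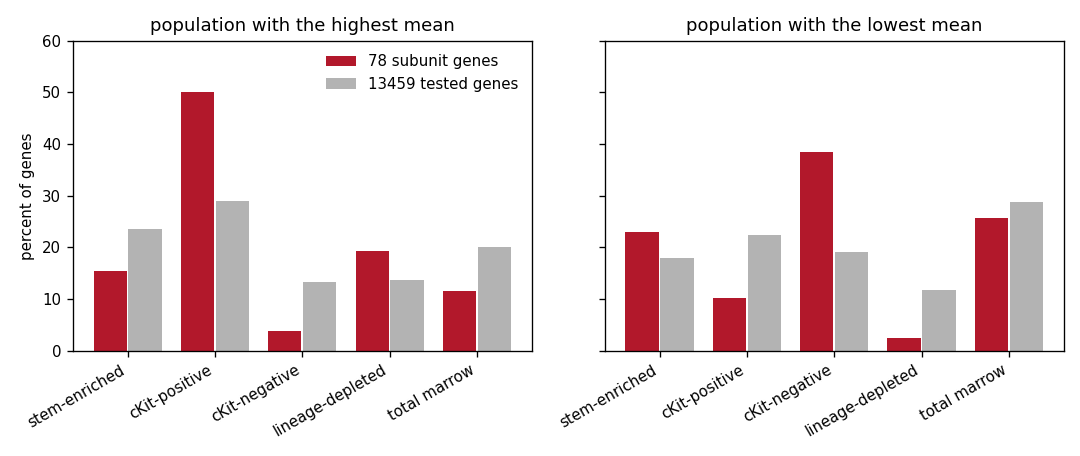
Percent of genes (y axis) whose highest (left) or lowest (right) population mean fell in each of the 5 populations with 3 samples, for the 78 subunit genes (red bars) and all 13459 tested genes (grey bars). The cKit-positive cells hold the highest mean for 39 of the 78 subunit genes, and the cKit-negative cells the lowest for 30.

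**Figure D2:**
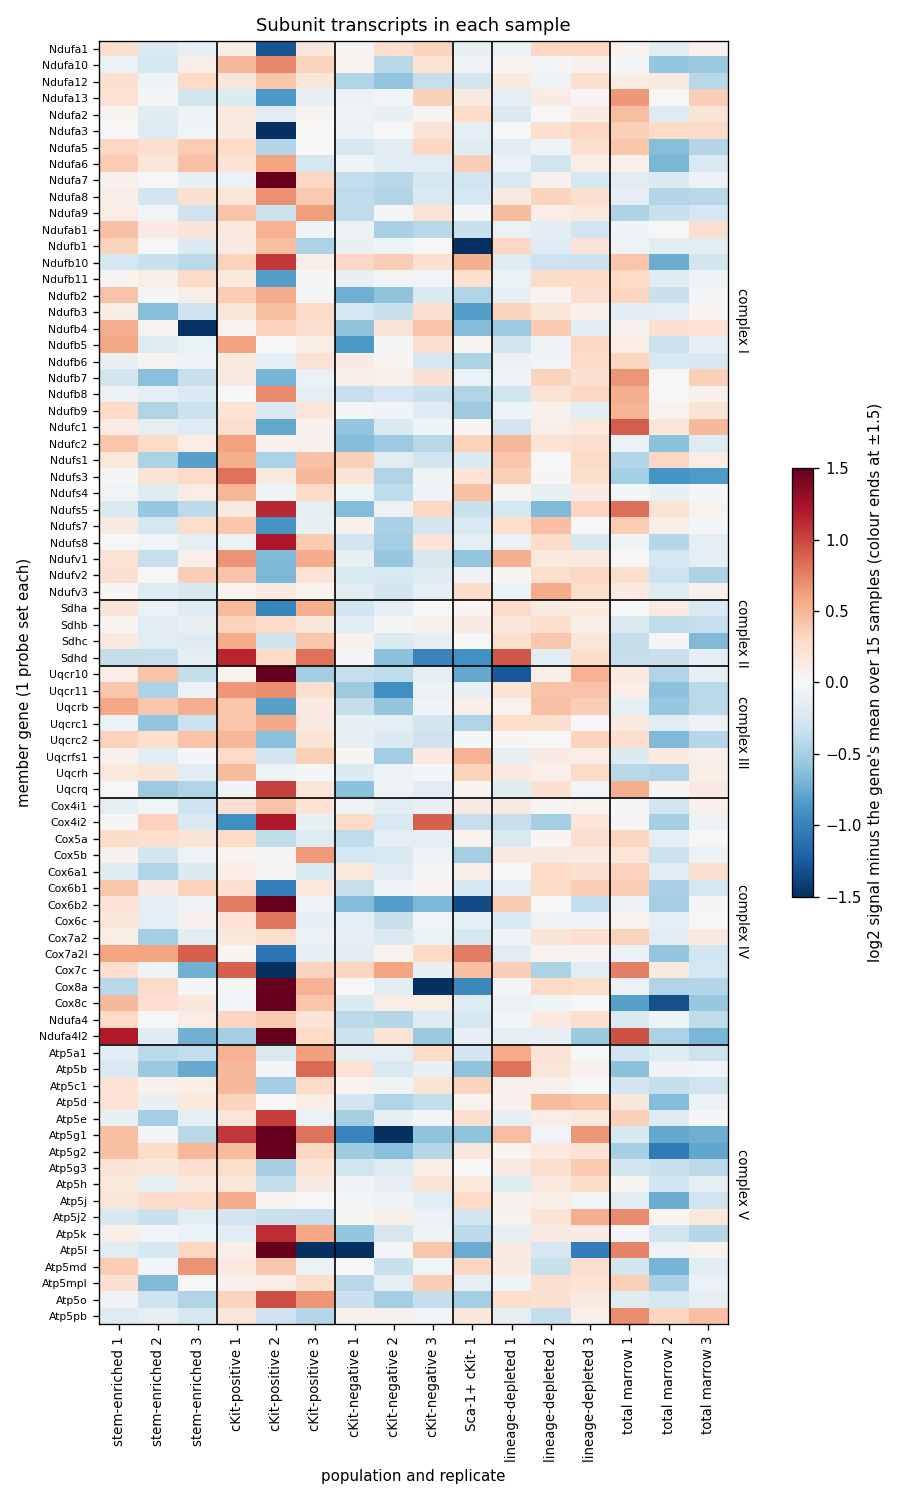
Log2 signal of each of the 78 tested subunit genes (rows, by complex) in each of the 16 samples (columns), as the difference from the gene's mean over the 15 samples of the 5 larger populations, with colours ending at 1.5 units either way. Most cells of the map are pale, cKit-positive replicate 2 departs in both directions, and Atp5g1 and Atp5g2 are dark red in cKit-positive cells.

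Few members passed a test in most comparisons, and the count has to be read against how often any gene passed. An F test over the 5 populations, in limma with Benjamini-Hochberg adjustment over all probe sets and a threshold of 0.05, called 10 of 78 members (12.8%), below the 20.0% of all genes. These were Ndufa8, Ndufc2, Ndufs3, Sdhd, Uqcr11, Cox7a2l, Cox8c, Atp5g1, Atp5g2 and Atp5o. The count moved with single samples: it was 24 without cKit-positive replicate 2 (30.8%, against 28.9% of all genes), 6 without cKit-negative replicate 2, without lineage-depleted replicate 2 or 3, or without total marrow replicate 3, and 5 without total marrow replicate 2. All comparisons below come from the same 15 samples and share their groups, so they are not independent of each other. They also share the estimate of the spread. Leaving out a sample from outside the compared pair therefore changes the SE and the calls but not the difference.

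In cKit-positive over cKit-negative cells 11 members rose (14.1%, against 6.00% of all genes higher) and 0 fell (against 7.36% of all genes lower), with 25 members at an unadjusted p under 0.05. The median member difference was 0.31 log2 units, against 0.11 over all genes, and 64 of 78 differences were above 0. Leaving out cKit-positive replicate 2 gave 12 members, all higher (15.4%, against 8.23% of all genes), a median of 0.35 against 0.08, and 67 differences above 0. The count was 7 without cKit-negative replicate 1 and 4 without cKit-negative replicate 2. With chip lot as a block it was 10, with scan day as a block 14, and within the chip lot that held 2 samples of each population 3, namely Sdhd, Atp5g1 and Atp5o. The cKit-positive samples in that lot of chip type A were replicates 2 and 3, so the fit within it leans on replicate 2. Late granulocyte markers moved with this comparison, with 12 of 12 lower in cKit-positive cells (summed signal 22312 to 39288, against 435686 to 751473 in cKit-negative cells). So did T and NK markers, with 7 of 10 lower (15610 to 22875, against 35607 to 62567), and early granulocyte-monocyte progenitor markers, with 5 of 8 higher and 1 lower (354416 to 498276, against 80741 to 180965). Of stem cell associated markers 5 of 12 were higher (28934 to 34665, against 15592 to 23643). Their part in the result was not tested.

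In cKit-positive cells over total marrow 12 members rose (15.4%, against 9.71% of all genes) and 3 fell (3.85%, against 10.4%), with a median of 0.31 against 0.15 over all genes. The test called 19 members higher (24.4%, against 11.0% of all genes) and 2 lower (2.56%, against 9.99%) without cKit-positive replicate 2. The total count of 15 was 9 without total marrow replicate 2 and 6 without replicate 3. With chip lot as a block it was 4 (Ndufs3, Sdhd, Atp5g1 and Atp5g2). In stem-enriched cells over total marrow 6 members rose (7.69%, against 8.47% of all genes) and 2 fell (2.56%, against 8.26%), with a median of 0.15 against 0.13. This total of 8 was 16 without cKit-positive replicate 2 (12 higher, 15.4%, against 13.9% of all genes), 3 without stem-enriched replicate 1, 5 without replicate 2, 2 without replicate 3, and 3 without total marrow replicate 2 or 3. With chip lot as a block only Ndufs3 was called. All 3 stem-enriched samples were in 1 lot of chip type A and all 3 total marrow samples in another. The blocked difference between them, here and for single members below, therefore rests on samples of other populations. No lot block was entered on chip type B. Stem-enriched cells and lineage-depleted marrow were each scanned on days of their own, and total marrow shared its days only with the single Sca-1-positive cKit-negative sample, so the day of the scan cannot be told apart from the population in them. Erythroid markers moved with both comparisons, with 6 of 10 lower and 1 higher in cKit-positive cells (summed signal 34454 to 70723) and 9 of 10 lower in stem-enriched cells (20106 to 25595), against 139316 to 223479 in total marrow. Late granulocyte markers were lower in both as well, 12 of 12 each time. B lineage markers were lower for 7 of 9 in cKit-positive cells (5214 to 12249.7) and 4 of 9 in stem-enriched cells (7263 to 13689.5), against 26382 to 36779.6 in total marrow. T and NK markers were lower for 4 of 10 and higher for 1 in cKit-positive cells, and lower for 3 in stem-enriched cells. Stem cell associated markers were higher for 4 of 12 in cKit-positive cells (28934 to 34665) and 10 of 12 in stem-enriched cells (72347 to 108006), against 12362 to 14207 in total marrow. Their part in these results was not tested.

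Few members passed between stem-enriched and cKit-positive cells. Here 1 member, Cox7a2l, was higher (1.28%, against 1.72% of all genes) and 1, Atp5o, was lower (1.28%, against 0.676%), while the median member difference was -0.22 log2 units against -0.01 over all genes, with 54 of 78 differences below 0 and 16 members at an unadjusted p under 0.05. Without cKit-positive replicate 2 the counts were 1 higher (1.28%, against 2.10% of all genes) and 4 lower (Atp5o, Atp5b, Atp5a1 and Sdhd, 5.13%, against 1.42%), the median -0.21 and 60 of 78 below 0. This made a total of 5, and the total was 4 without cKit-positive replicate 1, 1 without cKit-negative replicate 2, lineage-depleted replicate 1, 2 or 3 or total marrow replicate 3, and 0 without stem-enriched replicate 2 or 3. Within the chip lot shared with 2 cKit-positive samples, replicates 2 and 3, it was 0, and so it was when the Gapdh ratio entered as a covariate. The ratio was far lowest in cKit-positive replicate 2 and highest in the stem-enriched samples, so covariate and population cannot be told apart here. Stem cell associated markers moved with this comparison, with 6 of 12 higher in stem-enriched cells (summed signal 72347 to 108006, against 28934 to 34665 in cKit-positive cells). Erythroid markers had 2 of 10 lower. Their part was not tested.

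In stem-enriched over cKit-negative cells 1 member, Atp5g2, rose (1.28%, against 4.47% of all genes) and 0 fell (against 5.45%), with 12 members at an unadjusted p under 0.05 and a median of 0.16 against 0.10. The limma test called 9 members, all higher, without cKit-positive replicate 2 (11.5%, against 8.61% of all genes higher and 8.28% lower). It called 2 without cKit-positive replicate 1, and 0 without any one of the 3 stem-enriched samples, cKit-negative replicate 1 or 2, lineage-depleted replicate 2 or 3 or total marrow replicate 3. Late granulocyte markers moved with it, 12 of 12 lower in stem-enriched cells (summed signal 32653 to 73293.5, against 435686 to 751473 in cKit-negative cells), as did T and NK markers, 7 of 10 lower (10724 to 15529, against 35607 to 62567), erythroid markers, 4 of 10 lower, and stem cell associated markers, 10 of 12 higher (72347 to 108006, against 15592 to 23643). In lineage-depleted marrow over total marrow 1 member, Ndufs3, rose (1.28%, against 2.67%) and 0 fell (against 2.60%), with 19 members at an unadjusted p under 0.05 and a median of 0.21 against 0.10. This count was 8 without cKit-positive replicate 2 (7 higher and 1 lower, 10.3%, against 11.9% of all genes), 2 without cKit-positive replicate 3, and 0 without any one lineage-depleted sample or total marrow replicate 2 or 3. Late granulocyte markers were lower for 8 of 12 in lineage-depleted marrow (251643 to 532981, against 707601 to 822742 in total marrow), B lineage markers lower for 3 of 9 and stem cell associated markers higher for 4 of 12. The part of these markers in both results was not tested.

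The other 4 comparisons called 0 members in limma. In stem-enriched over lineage-depleted cells the background was 0.817% of all genes higher and 1.89% lower, and 10 members had an unadjusted p under 0.05. In cKit-positive over lineage-depleted cells the background was 0.0520% higher and 1.52% lower, with 9 members at an unadjusted p under 0.05. In cKit-negative over lineage-depleted cells it was 0.639% higher and 1.08% lower, with 13 such members and a median of -0.24 against -0.06 over all genes. In cKit-negative cells over total marrow it was 0.602% higher and 0.267% lower, with 6 such members. The 4 counts without cKit-positive replicate 2 were 2, 0, 6 and 2 (2.56%, 0%, 7.69% and 2.56%). Of all genes 6.09%, 1.85%, 7.16% and 3.21% were then called in these comparisons. The 6 were all lower (against 4.29% of all genes lower), and each 2 was 1 higher and 1 lower. The count for cKit-negative over lineage-depleted cells was 1 without cKit-negative replicate 3, cKit-positive replicate 1 or 3 or stem-enriched replicate 1.

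**Figure D3:**
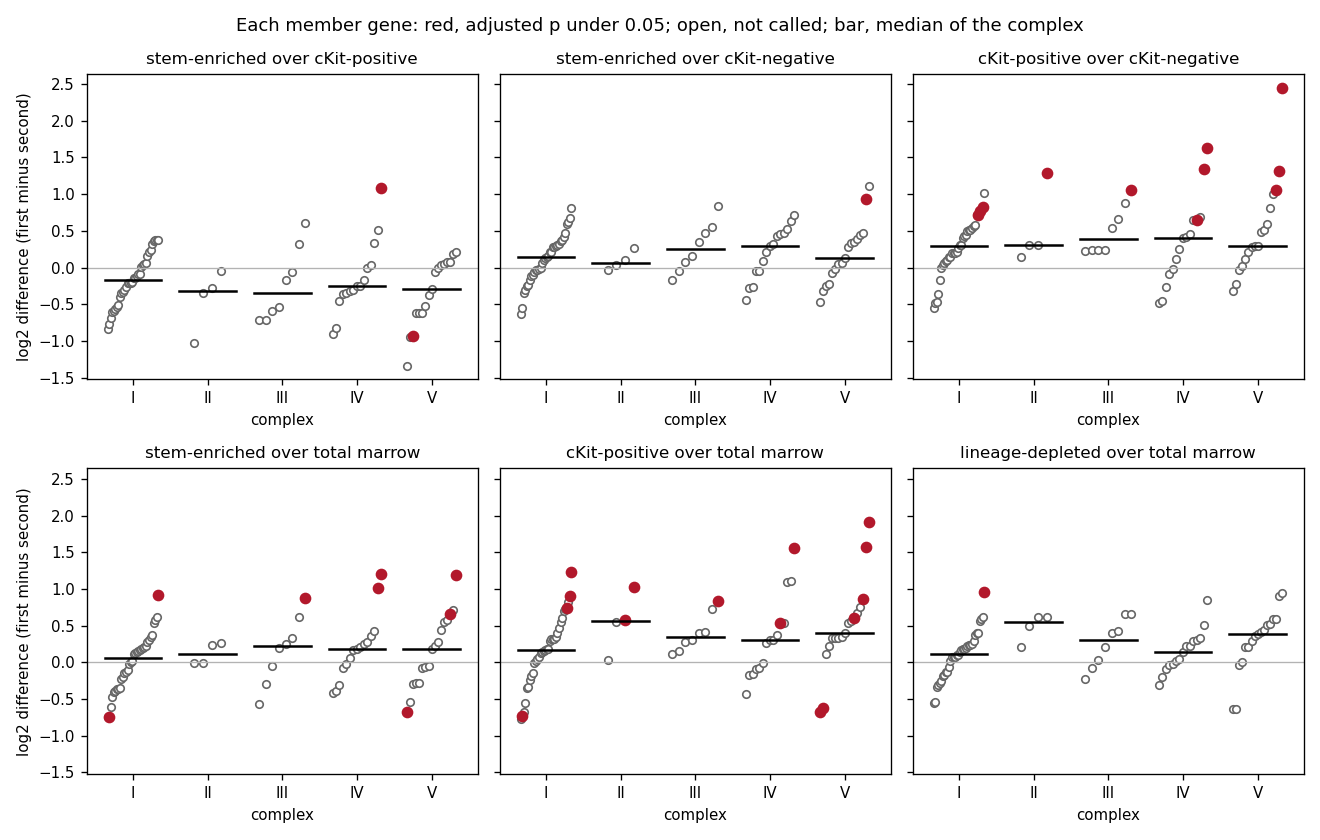
Log2 difference (y axis, first population minus second) of each member gene in 6 of the comparisons, by complex (x axis). Red circles passed at an adjusted p under 0.05, open circles did not, and the bar is the median of the complex. In cKit-positive over cKit-negative cells the medians run from 0.29 in complex I to 0.41 in complex IV, with Atp5g1 at 2.45.

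Complex by complex, the medians of cKit-positive over cKit-negative cells were close to each other. They were 0.29 in complex I, 0.31 in complex II, 0.39 in complex III, 0.41 in complex IV and 0.30 in complex V. Called higher were 3 of 34, 1 of 4, 1 of 8, 3 of 15 and 3 of 17 members, against 6.00% of all genes. These medians without cKit-positive replicate 2 were 0.35, 0.61, 0.44, 0.26 and 0.36. In each sample the median deviation of the complex III members lay between 0.16 and 0.42 in cKit-positive cells and between -0.29 and -0.11 in cKit-negative cells. All genes ran from 0.04 to 0.11 and from -0.08 to 0.03 in the same samples. The other complexes were separated too. Their lowest cKit-positive and highest cKit-negative medians were 0.04 and -0.06 in complex I, -0.01 and -0.08 in II, 0.16 and -0.11 in IV, and 0.05 and -0.05 in V. Lineage-depleted samples had 0.04, 0.18 and 0.31 in complex III.

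**Figure D4:**
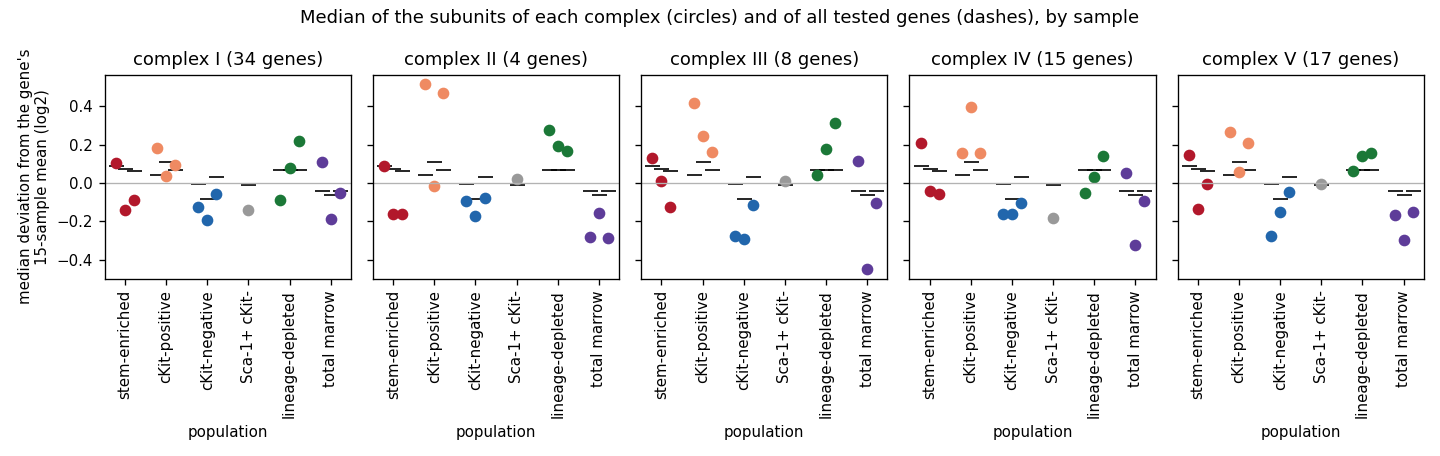
Median, over the members of each complex, of the difference from each gene's 15-sample mean (y axis, log2) in every sample (circles, by population on the x axis), with the same median over all tested genes (black dashes). In complex III the cKit-positive samples lie at 0.16 or above and the cKit-negative samples at -0.11 or below. In every other complex too the cKit-positive samples all lie above the cKit-negative ones.

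Complex I, the NADH dehydrogenase, had 34 tested members, of which 3 rose in cKit-positive over cKit-negative cells (against 6.00% of all genes). Ndufs3, a core subunit of the arm that faces the matrix, had log2 signals of 12.29, 11.60 and 11.96 in cKit-positive samples, 11.49, 11.67 and 11.75 in stem-enriched samples, 11.68, 11.02 and 11.39 in cKit-negative samples, 11.83, 11.49 and 11.71 in lineage-depleted marrow and 10.96, 10.58 and 10.62 in total marrow. The total marrow samples all lay below every other sample. Ndufs3 rose against total marrow by 1.23 ± 0.23 log2 units (SE) in cKit-positive cells (2.34-fold, adjusted p = 0.00138), by 0.92 ± 0.23 in stem-enriched cells (adjusted p = 0.012) and by 0.96 ± 0.23 in lineage-depleted marrow (adjusted p = 0.0258). The first call was kept when any 1 of the 15 samples was left out (adjusted p 0.000303 to 0.00984), with a difference of 1.40 without cKit-positive replicate 2. The second was lost without stem-enriched replicate 3 or total marrow replicate 2 or 3 (highest adjusted p = 0.057). The third was lost without any one lineage-depleted sample or total marrow replicate 2 or 3 (highest adjusted p = 0.119).

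Ndufa8, an accessory subunit held in the intermembrane space, had 12.05, 12.55 and 12.26 in cKit-positive samples, 11.97, 11.60 and 12.11 in stem-enriched samples, 11.49, 11.42 and 11.64 in cKit-negative samples, 12.00, 12.20 and 12.11 in lineage-depleted marrow and 11.74, 11.43 and 11.45 in total marrow. The cKit-positive samples lay above all cKit-negative and total marrow samples. Ndufa8 rose by 0.77 ± 0.20 over cKit-negative cells (adjusted p = 0.0194, lost without cKit-negative replicate 1 or 2) and by 0.75 ± 0.20 over total marrow (adjusted p = 0.0171, lost without total marrow replicate 2 or 3). These were 0.64 and 0.61, both called, without cKit-positive replicate 2. Ndufa10, an accessory subunit, rose in cKit-positive cells over total marrow, with 12.78, 13.01 and 12.62 in cKit-positive samples against 12.26, 11.71 and 11.74 in total marrow (0.90 ± 0.22, adjusted p = 0.00858). That call was kept in every leave-out of 1 sample but not with chip lot as a block (adjusted p = 0.0608), and the difference was 0.80 without cKit-positive replicate 2.

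Ndufa12 and Ndufb2, both accessory subunits, rose in cKit-positive over cKit-negative cells. Ndufb2 had 12.17, 12.35 and 11.76 in cKit-positive samples against 11.07, 11.18 and 11.56 in cKit-negative samples (0.82 ± 0.23, adjusted p = 0.0298). A second probe set of Ndufb2, of a kind prone to cross-hybridise, was also called (adjusted p = 0.003), while the remaining one gave 0.82 ± 0.78. Ndufa12 had 11.41, 11.65 and 11.40 in cKit-positive samples against 10.79, 10.64 and 10.89 in cKit-negative samples (0.72 ± 0.21, adjusted p = 0.0347). Its other probe sets gave 0.73 (adjusted p = 0.063) and, for one of the kind prone to cross-hybridise, 0.83 (adjusted p = 0.00925). The Ndufa12 call was lost without cKit-positive replicate 2 or 3 or any one cKit-negative sample (highest adjusted p = 0.133), with a difference of 0.63 without cKit-positive replicate 2. The Ndufb2 call was lost without cKit-positive replicate 1 or 2 or cKit-negative replicate 1 or 2 (highest adjusted p = 0.108), with 0.70 without cKit-positive replicate 2. Ndufc2, an accessory subunit of the membrane arm, passed the F test (adjusted p = 0.0486) and had 14.79, 14.66 and 14.49 in stem-enriched and 14.98, 14.44 and 14.44 in cKit-positive samples, all above the 13.72, 13.83 and 13.96 of the cKit-negative samples. Its differences, 0.81 ± 0.26 and 0.78 ± 0.26, did not pass (adjusted p = 0.0564 and 0.0544), but without cKit-positive replicate 2 both were called, at 0.81 (adjusted p = 0.0086) and 0.87 (adjusted p = 0.012). The 3 other probe sets of Ndufc2 gave 0.26, 1.40 and 1.28 in cKit-positive over cKit-negative cells, none called.

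The core subunits Ndufs1 and Ndufv1 passed no test with all samples in the fit. Ndufs1, the largest core subunit, had 11.95, 10.93 and 11.86 in cKit-positive samples, 11.57, 10.94 and 10.60 in stem-enriched samples and 11.77, 11.25 and 11.14 in cKit-negative samples, which overlap (F test adjusted p = 0.527). The Ndufs1 difference of cKit-positive over cKit-negative cells was 0.19 ± 0.31, and 0.52 without cKit-positive replicate 2, not called. Ndufv1, which binds NADH, had 13.33, 11.99 and 13.22 in cKit-positive and 12.53, 12.09 and 12.42 in cKit-negative samples. Of the cKit-positive samples only replicate 2 lay below the cKit-negative values, and the difference of 0.50 ± 0.29 (adjusted p = 0.297) was 0.93 and called without it. Against total marrow 2 members fell. Ndufa13, an accessory subunit also known as Grim19, was lower in cKit-positive cells (-0.73 ± 0.24, adjusted p = 0.0438), but the difference was -0.50 and not called without replicate 2 (adjusted p = 0.122). It was also lost without stem-enriched replicate 2, cKit-negative replicate 1 or 2, any one lineage-depleted sample or total marrow replicate 1 or 3 (highest adjusted p = 0.163). Ndufb7, an accessory subunit of the intermembrane space, was lower in stem-enriched cells (-0.75 ± 0.23, adjusted p = 0.0403). This call was kept in 6 of 15 leave-outs, those of cKit-negative replicate 1, any one cKit-positive sample, lineage-depleted replicate 1 and total marrow replicate 2, and with chip lot as a block the difference was -0.39 (adjusted p = 0.617), while its other probe set gave -0.53 (adjusted p = 0.0967).

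Complex II, succinate dehydrogenase, links the citric acid cycle to the chain. Sdhd, one of its membrane anchors, had 13.39, 12.55 and 13.07 in cKit-positive samples, 11.89, 11.90 and 12.12 in stem-enriched samples, 12.23, 11.64 and 11.27 in cKit-negative samples, 13.18, 12.09 and 12.52 in lineage-depleted marrow and 11.90, 11.92 and 12.11 in total marrow. The cKit-positive samples all lay above the stem-enriched, cKit-negative and total marrow samples. Sdhd rose in cKit-positive over cKit-negative cells by 1.29 ± 0.29 (2.45-fold, adjusted p = 0.00782), a call kept in all 15 leave-outs (0.00196 to 0.0421). Sdhd was also called within the shared chip lot, which held cKit-positive replicates 2 and 3 (1.36, adjusted p = 0.0324). Its rise over total marrow of 1.03 ± 0.29 (adjusted p = 0.0225) was lost without cKit-positive replicate 1 or 3 or any one total marrow sample (highest adjusted p = 0.073). The 2 rises were 1.52 and 1.25 without cKit-positive replicate 2. Between stem-enriched and cKit-positive cells the difference of -1.03 ± 0.29 did not pass (adjusted p = 0.0792), and it was -1.26 and called without cKit-positive replicate 2. The second probe set of Sdhd gave 0.53 ± 0.55 over cKit-negative cells (adjusted p = 0.6).

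Sdhb, the iron-sulfur subunit, rose in cKit-positive cells over total marrow, with 13.55, 13.49 and 13.37 in cKit-positive samples against 12.99, 12.82 and 12.86 in total marrow (0.58 ± 0.16, adjusted p = 0.0236). The call was lost without cKit-positive replicate 1 or total marrow replicate 2 or 3 (highest adjusted p = 0.0807), and the difference was 0.57 and called without cKit-positive replicate 2. Sdha, the flavoprotein that oxidises succinate, had 14.17, 12.72 and 14.24 in cKit-positive samples against 13.43, 13.56 and 13.70 in cKit-negative samples, where replicate 2 lay below and the other 2 above. Its difference was 0.15 ± 0.30 (adjusted p = 0.806), and 0.64 and called without replicate 2. Sdhc, the other anchor, had 11.51, 10.63 and 11.35 in cKit-positive samples against 11.01, 10.74 and 10.79 in cKit-negative samples (0.31 ± 0.25, adjusted p = 0.467, or 0.58 and not called without replicate 2), while a second probe set that is prone to cross-hybridise gave 1.09 ± 0.26 (adjusted p = 0.0132).

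Complex III, the cytochrome bc1 complex, had 8 tested members, and all 8 differences of cKit-positive over cKit-negative cells were above 0. Of these 1 was called (against 6.00% of all genes called higher). Uqcr11, the smallest subunit, had 12.53, 12.57 and 12.12 in cKit-positive samples, 12.29, 11.40 and 11.79 in stem-enriched samples, 11.33, 10.95 and 11.78 in cKit-negative samples, 12.09, 12.30 and 12.30 in lineage-depleted marrow and 11.98, 11.26 and 11.48 in total marrow. The cKit-positive samples all lay above the cKit-negative and total marrow samples. Uqcr11 rose over cKit-negative cells by 1.05 ± 0.27 (2.07-fold, adjusted p = 0.0173), lost without cKit-negative replicate 2 (adjusted p = 0.103) and 0.97 without cKit-positive replicate 2, and over total marrow by 0.84 ± 0.27 (adjusted p = 0.0412). The difference over total marrow was 0.76 without cKit-positive replicate 2 (adjusted p = 0.0813), and the call was kept in 7 of 15 leave-outs: stem-enriched replicate 1 or 2, cKit-positive replicate 3, any one cKit-negative sample and total marrow replicate 1.

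Uqcrb, which binds ubiquinone, rose in stem-enriched cells over total marrow, with 17.03, 16.86 and 16.99 in stem-enriched samples against 16.31, 15.88 and 16.05 in total marrow (0.88 ± 0.28, adjusted p = 0.0441). With quantile normalization the difference was 0.32 (adjusted p = 0.399). The call was kept in only 4 of 15 leave-outs, those of any one cKit-positive sample and of cKit-negative replicate 3, and the gene's other probe set gave 0.17 ± 0.22 (adjusted p = 0.678). Uqcrc1, a core protein, had 13.02, 12.52 and 12.80 in stem-enriched samples, below the 13.54, 13.68 and 13.25 of the cKit-positive samples, but the difference of stem-enriched over cKit-positive cells, -0.71 ± 0.19, did not pass (adjusted p = 0.0645), nor did the -0.61 without cKit-positive replicate 2. Uqcrfs1, the Rieske iron-sulfur protein, had overlapping values of 13.02, 12.46 and 13.08 in cKit-positive and 12.75, 12.21 and 12.87 in cKit-negative samples (0.24 ± 0.22, adjusted p = 0.533, or 0.44 and not called without replicate 2).

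Complex IV, cytochrome c oxidase, held the member that stood out in stem-enriched cells. Cox7a2l, a relative of the Cox7a subunits that joins complexes III and IV into supercomplexes, had 15.10, 15.10 and 15.41 in stem-enriched samples, 14.55, 13.42 and 14.37 in cKit-positive samples, 14.35, 14.57 and 14.81 in cKit-negative samples, 14.34, 14.57 and 14.55 in lineage-depleted marrow and 14.43, 13.92 and 14.23 in total marrow. The single Sca-1-positive cKit-negative sample had 15.28. The stem-enriched samples lay above all 12 samples of the other populations in the fit, and the single sample lay within their range. Cox7a2l rose in stem-enriched cells by 1.09 ± 0.26 over cKit-positive cells (2.13-fold, adjusted p = 0.0386) and by 1.01 ± 0.26 over total marrow (adjusted p = 0.0147). Over cKit-negative and lineage-depleted cells the differences of 0.63 and 0.72 did not pass (adjusted p = 0.163 and 0.191). Both passed without cKit-positive replicate 2.

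All 3 probe sets of Cox7a2l pointed the same way. The other 2 gave 0.94 ± 0.26 and 0.62 ± 0.23 over cKit-positive cells (adjusted p = 0.0769 and 0.186), and 0.98 and 0.92 over total marrow (adjusted p = 0.019 and 0.0125). The second of these is of the kind prone to cross-hybridise. The Cox7a2l difference over cKit-positive cells was 0.74 without cKit-positive replicate 2 (adjusted p = 0.0458) and 0.28 with the Gapdh ratio as a covariate (adjusted p = 0.584). It was lost without any one stem-enriched sample, cKit-negative replicate 2, any one lineage-depleted sample or total marrow replicate 3 (highest adjusted p = 0.161). The difference over total marrow with the covariate was 0.64 (adjusted p = 0.0139). It was lost without stem-enriched replicate 3 or total marrow replicate 2, and with chip lot as a block it was 1.37 (adjusted p = 0.0656).

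Cox6b2, Cox8a and Cox8c, which belong to families with tissue isoforms, were called in cKit-positive cells. Cox6b2, an isoform best known from testis, had 9.94, 11.20 and 9.10 in cKit-positive samples against 8.53, 8.35 and 8.50 in cKit-negative samples (1.62 ± 0.41, 3.08-fold, adjusted p = 0.0174). The cKit-positive replicate 2 was far above the rest, and the difference was 1.06 without it, still called, while the call was lost without cKit-negative replicate 2 (adjusted p = 0.0686). Cox8c, also known from testis, had 11.13, 12.75 and 11.59 in cKit-positive samples, 11.66, 11.43 and 11.34 in stem-enriched samples, 10.97, 11.29 and 11.29 in cKit-negative samples, 11.08, 11.11 and 11.18 in lineage-depleted marrow and 10.36, 9.85 and 10.60 in total marrow. Total marrow lay below every other sample.

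Cox8c rose over total marrow by 1.55 ± 0.32 in cKit-positive cells (2.93-fold, adjusted p = 0.00296, or 1.09 without replicate 2) and by 1.20 ± 0.32 in stem-enriched cells (adjusted p = 0.0173, lost without stem-enriched replicate 1 or total marrow replicate 2). With chip lot as a block these were 1.04 and 0.43 (adjusted p = 0.1 and 0.658). Its second probe set gave 0.08 ± 0.84 in cKit-positive cells over total marrow. Cox8a, the widely expressed isoform, had 12.32, 14.07 and 12.83 in cKit-positive samples against 12.30, 12.13 and 10.75 in cKit-negative samples (1.35 ± 0.40, adjusted p = 0.0399), and the difference was 0.85 and not called without replicate 2 (adjusted p = 0.134). The other probe sets of Cox8a gave 0.56 and 0.65, neither called. The Cox8a call was kept in 5 of 15 leave-outs, those of stem-enriched replicate 1 or 2, cKit-positive replicate 1, cKit-negative replicate 1 and total marrow replicate 1.

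Ndufa4, a subunit of complex IV in spite of its name, had tight values of 13.08, 13.16 and 12.97 in cKit-positive samples against 12.37, 12.33 and 12.57 in cKit-negative samples and 12.55, 12.70 and 12.38 in total marrow. It rose by 0.65 ± 0.18 over cKit-negative cells (adjusted p = 0.0245, lost without cKit-negative replicate 1 or 2) and by 0.53 ± 0.18 over total marrow (adjusted p = 0.0487, kept only when stem-enriched replicate 1 was left out). These were 0.61 and 0.49 without cKit-positive replicate 2. Cox4i1, the regulatory subunit found in most tissues, had 14.02, 14.22 and 14.01 in cKit-positive and 13.72, 13.64 and 13.68 in cKit-negative samples, with no overlap, but the difference of 0.41 ± 0.17 did not pass (adjusted p = 0.144), nor did the 0.34 without replicate 2. Cox5a, another subunit found in most tissues, gave 0.12 ± 0.21 (adjusted p = 0.772), or 0.26 and not called without replicate 2. Of its other probe sets one gave 0.64 ± 0.17 (adjusted p = 0.0217) and the remaining one -0.08 ± 0.30 (adjusted p = 0.898).

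Several isoforms known from other tissues were untested or passed no test. Cox7a1, of heart and skeletal muscle, lay at the floor of 7.34 in 15 of 16 samples, and Cox8b, of the same tissues, in 13 of 16. Cox7b2, an isoform known from testis, was also untested. Cox4i2, known from lung and from low oxygen, had overlapping values from 8.83 to 10.95 in cKit-positive and 9.51 to 10.64 in cKit-negative cells (-0.26 ± 0.43, adjusted p = 0.752). Ndufa4l2, which low oxygen raises in many cells, ranged from 9.06 to 11.17 in cKit-positive and from 9.01 to 9.78 in cKit-negative cells (0.69 ± 0.63, adjusted p = 0.533). Cox7a2, the isoform found in most tissues, had 14.69, 14.79 and 14.43 in cKit-positive samples against 14.41, 14.32 and 14.43 in cKit-negative samples, a difference of 0.25 ± 0.21 (adjusted p = 0.486). Without replicate 2 the differences of Cox4i2, Ndufa4l2 and Cox7a2 were -0.84, 0.12 and 0.17, none called.

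Complex V, the ATP synthase, held the widest difference, in a gene of its c ring. Atp5g1, Atp5g2 and Atp5g3 each make the same mature c subunit behind a different import sequence. Their promoters are shown because Atp5g1 and Atp5g2 passed the F test and Atp5g3 did not. A promoter here is the stretch from 250 bases before to 50 bases after the start of the RefSeq transcript, on build GRCm38.p6, read 5′ to 3′ on the gene's strand, which is the minus strand for each. Capitals mark matches to 4 motifs searched on both strands: CCGGAAG (an ETS site that GABP binds), GCGCATGC (NRF1), AAGATGGC (YY1) and GGGCGG (Sp1).
Atp5g1, chr11:96075582-96075881: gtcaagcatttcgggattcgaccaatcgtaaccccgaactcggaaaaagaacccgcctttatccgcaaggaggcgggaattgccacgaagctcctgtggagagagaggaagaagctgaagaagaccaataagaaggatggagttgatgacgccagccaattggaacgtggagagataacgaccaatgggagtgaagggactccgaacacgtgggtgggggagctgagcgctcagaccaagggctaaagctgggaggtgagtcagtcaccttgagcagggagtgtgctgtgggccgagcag
Atp5g2, chr15:102670998-102671297: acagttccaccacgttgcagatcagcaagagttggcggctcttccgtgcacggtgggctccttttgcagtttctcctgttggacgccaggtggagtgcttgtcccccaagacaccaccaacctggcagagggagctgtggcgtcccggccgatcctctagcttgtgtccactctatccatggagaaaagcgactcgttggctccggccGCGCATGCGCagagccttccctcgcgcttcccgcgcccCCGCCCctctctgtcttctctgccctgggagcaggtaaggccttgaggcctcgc
Atp5g3, chr2:73911277-73911576: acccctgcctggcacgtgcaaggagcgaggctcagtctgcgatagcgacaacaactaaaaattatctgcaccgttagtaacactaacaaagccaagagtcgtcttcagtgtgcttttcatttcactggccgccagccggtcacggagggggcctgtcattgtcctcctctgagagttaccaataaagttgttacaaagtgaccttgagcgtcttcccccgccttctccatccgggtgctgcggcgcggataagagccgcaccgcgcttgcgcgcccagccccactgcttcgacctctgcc
Only the Atp5g2 stretch held any of these letters. It has 2 overlapping matches to the NRF1 letters, on opposite strands, between bases -42 and -33, and an Sp1 match between -4 and 1, counted from the start. Over the 67 members with a promoter in the RefSeq table, 16 held the ETS letters (23.9%, against 9.12% of 27025 promoters), 9 the NRF1 letters (13.4%, against 2.80%), 8 the YY1 letters (11.9%, against 2.88%) and 29 the Sp1 letters (43.3%, against 35.9%). A match is a description of the sequence and not a binding site.

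Atp5g1 had log2 signals of 12.00, 13.08 and 11.76 in cKit-positive samples, 11.39, 10.91 and 10.53 in stem-enriched samples, 9.94, 9.20 and 10.34 in cKit-negative samples, 11.40, 10.90 and 11.60 in lineage-depleted marrow and 10.70, 10.17 and 10.21 in total marrow. The cKit-positive samples lay above all others and the cKit-negative samples below the stem-enriched and lineage-depleted ones. Atp5g1 rose in cKit-positive cells by 2.45 ± 0.36 over cKit-negative cells (5.47-fold, adjusted p = 0.00025) and by 1.92 ± 0.36 over total marrow (3.77-fold, adjusted p = 0.00147). Both calls were kept in all 15 leave-outs. The differences without cKit-positive replicate 2 were 2.05 and 1.51. Within the shared chip lot, which held that replicate, the first was 2.65 (adjusted p = 0.0241). Stem-enriched cells lay between, at -1.34 ± 0.36 from cKit-positive cells (adjusted p = 0.0638) and 1.12 ± 0.36 from cKit-negative cells (adjusted p = 0.0666), the second being called without cKit-positive replicate 2.

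Atp5g2 was high in both cKit-bearing populations. It had 13.10, 14.19 and 12.93 in cKit-positive samples and 13.07, 12.90 and 13.12 in stem-enriched samples, against 12.10, 11.99 and 12.20 in cKit-negative samples and 12.12, 11.56 and 11.84 in total marrow, with lineage-depleted marrow at 12.65, 12.77 and 12.82 and the single Sca-1-positive cKit-negative sample at 12.80. In cKit-positive cells it rose by 1.31 ± 0.26 over cKit-negative cells (2.48-fold, adjusted p = 0.00376) and by 1.57 ± 0.26 over total marrow (2.96-fold, adjusted p = 0.000649). In stem-enriched cells it rose by 1.19 ± 0.26 over total marrow (2.28-fold, adjusted p = 0.00586). These 3 calls were kept in all 15 leave-outs, with 0.92 and 1.17 for the cKit-positive cells without replicate 2.

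Over cKit-negative cells the stem-enriched rise of Atp5g2, 0.94 ± 0.26 (adjusted p = 0.0369), was kept in 6 of 15 leave-outs. Those were the ones of any one cKit-positive sample, lineage-depleted replicate 1 and total marrow replicate 1 or 2. With chip lot as a block the stem-enriched difference over total marrow was 0.92 (adjusted p = 0.241). A second probe set of Atp5g2 gave 0.46 ± 0.49 in cKit-positive over cKit-negative cells (adjusted p = 0.598). Atp5g3 had 16.15, 15.39 and 16.09 in cKit-positive samples and, in cKit-negative replicates 1 and 2, 15.59 and 15.70, with replicate 3 also inside the cKit-positive range. Its difference was 0.12 ± 0.22 (adjusted p = 0.792), or 0.36 and not called without cKit-positive replicate 2. Whether the differences of the 3 genes differ from each other was not tested.

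**Figure D5:**
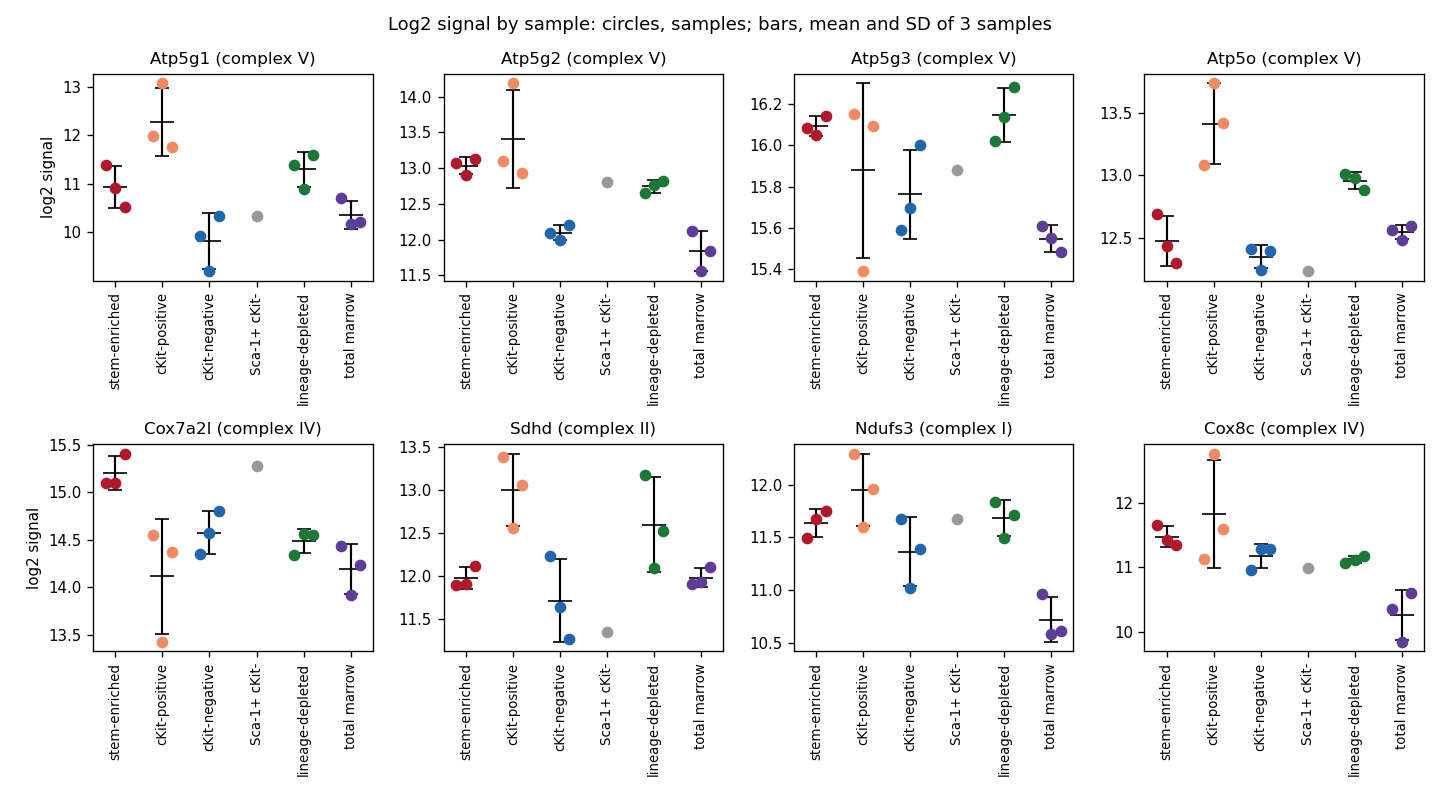
Log2 signal (y axis, a scale per gene) of 8 members in each of the 16 samples (circles, by population on the x axis), with the mean and SD of 3 samples as bars. Atp5g1 lies at 11.76 or above in the cKit-positive samples and at 10.34 or below in the cKit-negative ones, Atp5g3 overlaps, and Cox7a2l is highest in the stem-enriched samples and the single Sca-1-positive cKit-negative sample.

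Atp5o, the stalk subunit also called OSCP, was highest in the cKit-positive samples. It had 13.09, 13.73 and 13.42 in cKit-positive samples, 12.70, 12.44 and 12.30 in stem-enriched samples, 12.42, 12.25 and 12.40 in cKit-negative samples, 13.01, 12.98 and 12.88 in lineage-depleted marrow and 12.56, 12.48 and 12.60 in total marrow, and the single Sca-1-positive cKit-negative sample had 12.24. No sample of another population reached them. Atp5o rose in them by 1.06 ± 0.19 over cKit-negative cells (2.08-fold, adjusted p = 0.00166) and by 0.86 ± 0.19 over total marrow (adjusted p = 0.00513), both kept in all 15 leave-outs. In stem-enriched over cKit-positive cells Atp5o fell by 0.93 ± 0.19 on the log2 scale (adjusted p = 0.0166), which was lost without stem-enriched replicate 2 or 3 (highest adjusted p = 0.0972) and once the Gapdh ratio entered as a covariate (adjusted p = 0.21). The 3 differences without cKit-positive replicate 2 were 0.90, 0.70 and -0.77.

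The brightest probe sets of the alpha and beta subunits, which form the catalytic head, passed no test with all samples in the fit. Atp5b, the catalytic beta subunit, had 13.99, 13.66 and 13.46 in stem-enriched samples, 14.71, 14.18 and 15.07 in cKit-positive samples, 14.43, 13.99 and 14.10 in cKit-negative samples, 15.03, 14.40 and 14.28 in lineage-depleted marrow and 13.61, 14.16 and 14.17 in total marrow. The stem-enriched samples all lay below the cKit-positive ones. In stem-enriched over cKit-positive cells its difference of -0.95 ± 0.27 did not pass (adjusted p = 0.0798), and it was -1.19 and called without cKit-positive replicate 2. Atp5a1, the alpha subunit, then fell by 0.88 on the log2 scale in the same comparison. Over total marrow the brightest probe set of Atp5a1 gave -0.05, 0.57 and 0.51 in stem-enriched, cKit-positive and lineage-depleted cells, none called, and 0.83, called, in cKit-positive cells without replicate 2. Of its other probe sets one was called in each, at 1.28 ± 0.41, 1.59 ± 0.41 and 1.92 ± 0.41 (adjusted p = 0.046, 0.0136 and 0.0153), and the remaining one in none (0.65, 0.17 and 0.59). Atp5j, a subunit of the stalk, rose over total marrow by 0.66 ± 0.20 in stem-enriched cells (adjusted p = 0.0353) and by 0.61 ± 0.20 in cKit-positive cells (adjusted p = 0.0465). The first was lost without any one stem-enriched sample or total marrow replicate 2 or 3 (highest adjusted p = 0.178). The second was kept in 3 of 15 leave-outs, of cKit-positive replicate 2 (0.68) or 3 and total marrow replicate 1.

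A pair of complex V members were lower than in total marrow. Atp5pb, a subunit of the outer stalk, had 13.32, 13.37 and 13.26 in stem-enriched samples and 13.69, 13.20 and 13.08 in cKit-positive samples, against 14.21, 13.83 and 13.96 in total marrow. It fell by 0.68 ± 0.20 on the log2 scale in both (adjusted p = 0.0283 and 0.0265). The first was lost without any one stem-enriched sample or total marrow replicate 1 or 3, and the second, which was -0.61 without cKit-positive replicate 2, without cKit-positive replicate 3 or total marrow replicate 1 or 3. With chip lot as a block the 2 differences were -0.19 and -0.35 (adjusted p = 0.765 and 0.392), and a second probe set of Atp5pb gave -0.72 ± 0.24 in stem-enriched cells (adjusted p = 0.0565) and 0.24 ± 0.24 in cKit-positive cells. Atp5j2, a small membrane subunit, fell by 0.62 ± 0.20 on the log2 scale in cKit-positive cells over total marrow (adjusted p = 0.0443), kept in 4 of 15 leave-outs (of cKit-positive replicate 2 with -0.61, lineage-depleted replicate 1 or 3 and total marrow replicate 2), and its other probe sets gave 0.65 and 0.43.

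Probe sets of 1 gene did not always tell the same story. Of 45 members with more than 1 tested probe set, 27 had all their differences of cKit-positive over cKit-negative cells on the same side of 0. Over all 151 tested probe sets of members, 19 were called in that comparison, 24 in cKit-positive cells over total marrow and 13 in stem-enriched cells over total marrow. The share of all tested probe sets is not given beside these counts. Counted by 1 probe set per gene, either way, 14.1%, 19.2% and 10.3% of members were called in these comparisons. The shares of all genes were 13.4%, 20.1% and 16.7%.

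The single Sca-1-positive cKit-negative sample had no replicate, and its values carry no test. It lay outside the range of the 15 other samples for 9 of 78 members (11.5%, against 15.3% of all genes), above it for 1 and below it for 8. Uqcrfs1 was above, at 13.25 against a highest of 13.08. Ndufb1, a small accessory subunit of complex I, was farthest below, at 8.04 against a lowest of 9.22. Cox6b2 was at 7.83 against 8.35, and the rest (Atp5o, Cox5b, Ndufb3, Ndufb6, Ndufb8 and Ndufb9) were less than 0.25 log2 units below.

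Genes that build or serve the chain were read from 5 further lists, in cKit-positive over cKit-negative cells. The background there was again 6.00% of all genes higher and 7.36% lower, with a median of 0.11. Of 42 tested assembly factors 11 rose and 0 fell (15 at an unadjusted p under 0.05), with a median of 0.28. Without cKit-positive replicate 2 this was 10 higher, with a median of 0.54, and the count was 2 without cKit-negative replicate 1 and 4 without cKit-negative replicate 2. Uqcc2, an assembly factor of complex III, rose by 1.43 ± 0.27 (adjusted p = 0.00221, at most 0.016 in any leave-out). Ndufaf4, of complex I, rose by 1.17 ± 0.29 (adjusted p = 0.014, or 0.065 without cKit-negative replicate 1). Sco2, which delivers copper to complex IV, rose by 1.62 ± 0.43 (adjusted p = 0.0218), with 2 of its 3 cKit-negative samples at the floor. That call was lost without cKit-positive replicate 2 (1.25, adjusted p = 0.0628) and without cKit-negative replicate 1 or 3.

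Of 16 tested electron carriers and coenzyme Q enzymes 1 rose and 0 fell (3 at an unadjusted p under 0.05), with a median of 0.52. Without cKit-positive replicate 2 there were 5 higher. The called gene was Etfb, which brings electrons from fatty acid oxidation (0.92 ± 0.21, adjusted p = 0.00914, kept in all leave-outs). Of 16 citric acid cycle enzymes 3 rose and 1 fell, with a median of 0.18, and without cKit-positive replicate 2 there were 4 higher and 0 lower, with a median of 0.56. The total was 0 without cKit-negative replicate 2, 1 without cKit-negative replicate 1, and 2 without cKit-positive replicate 1 or 3 or total marrow replicate 3. Idh3a, of isocitrate dehydrogenase, rose by 0.84 ± 0.20 (adjusted p = 0.0095), lost without cKit-negative replicate 2. Suclg2, of succinyl-CoA ligase, rose by 1.14 ± 0.31 (adjusted p = 0.0229), lost without cKit-positive replicate 1 or 3 or cKit-negative replicate 1 or 2. Dlst, of the oxoglutarate dehydrogenase complex, fell by 1.41 ± 0.45 on the log2 scale (adjusted p = 0.0478), but its difference was -0.69 and not called without cKit-positive replicate 2, and 4 of 15 leave-outs kept the call, those of stem-enriched replicate 1 or 3 and cKit-positive replicate 1 or 3.

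Of 7 carriers and inhibitors that serve ATP synthase 1 rose, the ADP/ATP carrier Slc25a5 (0.62 ± 0.19, adjusted p = 0.0429), with a median of 0.42 and 3 higher without cKit-positive replicate 2. The Slc25a5 call was kept in 4 of 15 leave-outs, those of stem-enriched replicate 1, cKit-positive replicate 2 and total marrow replicate 1 or 2. Of 16 regulators of mitochondrial gene expression 1 rose, the mitochondrial transcription factor Tfb2m (0.88 ± 0.25, adjusted p = 0.0287), with a median of 0.16 and 2 higher without cKit-positive replicate 2. The Tfb2m call was lost without cKit-positive replicate 1 or any one cKit-negative sample (highest adjusted p = 0.0969). Of 25 cell cycle genes, read for comparison, 0 rose and 2 fell (3 at an unadjusted p under 0.05). Their median was -0.08, or 0.09 with 1 lower without cKit-positive replicate 2, and 1 was lower without cKit-negative replicate 1 or 2.

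Between stem-enriched and cKit-positive cells limma called 0 genes of the 5 lists, with 13 of 97 at an unadjusted p under 0.05 and list medians between -0.12 and 0.02. Without cKit-positive replicate 2 it called 2 lower, 1 assembly factor and 1 carrier, without stem-enriched replicate 1 it called 1 electron carrier or coenzyme Q gene each way, and without cKit-positive replicate 1 it called 1 carrier higher and 1 regulator lower. In stem-enriched over cKit-negative cells 7 of the 97 rose and 0 fell, against 4.47% and 5.45% of all genes. Without cKit-positive replicate 2 it was 15 and 1, against 8.61% and 8.28%. Among the 7 was Slc25a4, the other ADP/ATP carrier (1.24 ± 0.29, adjusted p = 0.0119, lost without stem-enriched replicate 2 or cKit-negative replicate 1). Over total marrow Slc25a4 rose in stem-enriched cells by 1.45 ± 0.29 (adjusted p = 0.00266, kept in all leave-outs). There 2 of the 7 carriers and inhibitors rose, against 8.47% of all genes.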

How the data were processed

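Transcripts of 16 RNA samples were read on 32 Affymetrix arrays. The authors deposited one intensity per probe set and array, already scaled per array. The submitters' processing notes name MAS5, with a version not given in the sources used here. Chip lots and scan days came from deposited records of the instrument (unit: other, as text). Single probes and detection calls were not analysed here.

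Signals below their chip type's 25th percentile were set to it (162.3 on A and 268.1 on B), and log2 was taken. Probe sets above the chip type's median signal (535.3 and 843.8) on 3 or more arrays were tested, 28949 of 45037. The platform table gave 34945 probe sets 1 symbol, 932 several and 9160 none. A gene was counted by its brightest probe set, ending in _x_at only where it had no other. Sets ending in _s_at, which can read several transcripts, were kept, among them those of Ndufa12, Ndufa13, Atp5j2 and Atp5pb. Of 81 members, 67 matched a RefSeq promoter by gene ID.

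The fit used limma 3.58.1 (R 4.3.3) on 15 samples, with population as factor and a trend in intensity, each chip type alone. Two-sided p-values were adjusted by Benjamini-Hochberg over both chip types per comparison. The fit was tested on simulated data. The number of arrays limits the precision. Other steps used Python 3.11.15 with pandas 2.3.3, NumPy 2.4.6 and, for figures, matplotlib 3.10.9.

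Members and gene lists were chosen with earlier results of these data known. Values are named for up to 4 members per complex with the lowest F test p, for fixed core and isoform genes, for up to 5 called members each way in 6 comparisons, and for Kit and up to 3 called genes of a list. Members named beyond these were chosen after their values were seen. Alternatives were quantile normalization, no floor, no filter or a stricter one, a replicate or chip lot block, the Gapdh ratio as a covariate, fits of the compared populations, the mean over probe sets and leaving out each sample. A scan day block, fits within 1 chip lot, lists without each sample, and counts by population or complex without cKit-positive replicate 2 were later additions, made after seeing the data.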

Additional observations from a re-analysis of the deposited data

How the results depend on the processing

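Counts of members called moved with the processing. So did the share of all genes called, which in the F test was 20.0% with all samples and 28.9% without cKit-positive replicate 2. That share is not given beside the counts in this section. They describe the settings and are not results about the members. The counts with all samples were 10 in the F test, 2 in stem-enriched over cKit-positive, 1 in stem-enriched over cKit-negative, 11 in cKit-positive over cKit-negative, 0 in each of the first 3 populations over lineage-depleted cells, and 8, 15, 0 and 1 in stem-enriched, cKit-positive, cKit-negative and lineage-depleted cells over total marrow. In the same order, leaving out 1 sample gave ranges of 5 to 24, 0 to 5, 0 to 9, 4 to 14, then 0 to 2, 0 to 0 and 0 to 6, then 2 to 16, 6 to 21, 0 to 2 and 0 to 8.

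Stem-enriched over cKit-positive cells gave 4 calls with quantile normalization and 0 with the Gapdh ratio as a covariate, with only the compared populations, with probe sets of a gene averaged or within chip lot 2. Stem-enriched over cKit-negative cells gave 0 with quantile normalization, chip lot as a block or within chip lot 2, 3 with no filter, 5 with a filter at the 75th percentile or only the compared populations, 10 with the covariate and 2 with the mean over probe sets. Here cKit-positive over cKit-negative cells gave 1 with only the compared populations and 3 within chip lot 2. Over lineage-depleted cells, stem-enriched cells gave 5 with the covariate and 1 with only the compared populations, and cKit-negative cells gave 1 with the stricter filter, 3 with the covariate and 4 with only the compared populations. Over total marrow, stem-enriched cells gave 5 with no filter and 1 with chip lot as a block, cKit-positive cells 4 with chip lot as a block and 3 with only the compared populations, and cKit-negative cells 1 with the covariate. Lineage-depleted over total marrow gave 2 with no filter, the stricter filter or the mean over probe sets, 0 with chip lot as a block, and 7 with the covariate or only the compared populations. The F test gave 5 with chip lot as a block and 27 with the covariate. The fits within a lot or of the compared populations hold fewer samples. Leaving out a sample from outside the compared pair kept each difference and changed only the SE, pooled over all populations, and the p-values. Atp5g2 in stem-enriched over cKit-negative cells was 0.94 with and without cKit-positive replicate 2, with an SE of 0.26 and 0.16. The cause of the other moves was not tested.

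With the replicate number as a block, stem-enriched over cKit-negative cells gave 0 calls and cKit-positive over cKit-negative cells 11. Samples with the same number shared little beyond it: their deviations correlated at -0.083 to 0.119 over 30 pairs, and other samples' at -0.093 to 0.091 over 60. The median member difference kept its sign under every setting run except in cKit-negative cells over total marrow, where it ran from -0.18 to 0.04. Of 352 values of named members under quantile normalization or without 1 sample, 270 kept their call, 82 lost it and 0 reversed.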
